A study of Mus musculus with 6 samples.

Results

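The genes of the BCL2 family of apoptosis regulators were followed in NIH-3T3 cells, a mouse embryonic fibroblast line grown in medium with serum, and in a mutated derivative of the same line. The members were chosen by symbol: Bcl2, Bcl2l1, Mcl1, Bax, Bak1, Bid, Bcl2l11, Bbc3, Bad and Bnip3. All 10 were found among the 55401 genes of the expression table, and all 10 were among the 14209 genes with enough signal to test. There were 3 libraries of the cells whose genotype is labelled WT and 3 of the cells whose genotype is labelled Mutation (MU), both under plain culture. Which gene was mutated, by which allele, and whether MU is 1 clone are not stated in the labels, so the mutation and any other difference between these 2 cell populations cannot be told apart. The title of the series concerns errors in mitochondrial translation, oxidative stress and arrest of the cell cycle, and the comparison asks how the transcriptome of MU cells differs from that of WT cells.

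Proteins of this family decide whether the outer membrane of the mitochondrion stays intact. Pro-survival members hold the pore-forming effectors BAX and BAK in check, and BH3-only proteins, named for the short helix they share with the rest of the family, release or activate those effectors when a cell is stressed. Once the effectors open the membrane, cytochrome c leaves the mitochondrion and caspases are activated in the cytosol. Much of this control acts on protein stability, phosphorylation and splicing, which a gene-level mRNA value does not show.

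Levels are given in TPM, a share of all transcripts in a library after reads are divided by gene length. The lengths used are not stated, so levels of different genes can be compared only roughly. Fold changes are differences of log2(TPM + 1), MU minus WT, which understates changes of low genes, and were tested with limma over all 14209 genes. Of the 9 fibroblast markers, all were above 1 TPM in every library (19.3 TPM or more), and their summed level was 8554 to 9842 TPM in WT and 11125 to 11633 TPM in MU. The sum hides differences between them. At a limma adjusted p under 0.05, 4 were higher in MU (Col1a1, Col1a2, Thy1 and Fn1) and 5 did not pass, while 7.12% of all genes tested were higher. Col1a2 went from 859 to 2180 TPM, and S100a4 was at 2921 TPM (WT) and 2586 TPM (MU). All 5 epithelial markers stayed under 1 TPM. Of 5 leukocyte markers only Cd68 exceeded 1 TPM, with a list sum of 2.06 to 3.25 TPM in WT and 3.26 to 5.71 TPM in MU. Of 4 endothelial markers only Cdh5 exceeded 1 TPM, with a list sum of 1.62 to 3.22 TPM in WT and 0.692 to 0.867 TPM in MU. The part of these marker levels in the results was not tested. WT replicates 2 and 3 stood at opposite ends in how a library's deviations followed GC content (Spearman correlations of 0.33 and −0.25 over all tested genes), and the other libraries lay between −0.12 and 0.17.

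In MU cells, 1 of the 10 members rose, 1 fell and 8 did not pass the test. Bnip3, which encodes a mitochondrial outer membrane protein of mitophagy and cell death, fell to 0.588 of its mean WT level. Bcl2l11, which encodes the BH3-only protein BIM, rose to 1.43 of its mean WT level. Over all genes tested, 18.8% passed at a limma adjusted p under 0.05, 7.12% higher and 11.6% lower in MU, so 2 of 10 is a share near that background. In such bulk samples, fewer cells with an mRNA and less of it per cell cannot be told apart. The groups did not overlap in 4 members, Bcl2, Mcl1, Bcl2l11 and Bnip3, against 39.2% of all genes tested. The median log2 fold change was −0.07 over the members and −0.05 over all genes tested. In the authors' deposited table the same 2 members had an adjusted p under 0.05, where 21.1% of the genes with an adjusted p did, 9.42% higher and 11.6% lower.

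**Figure D1:**
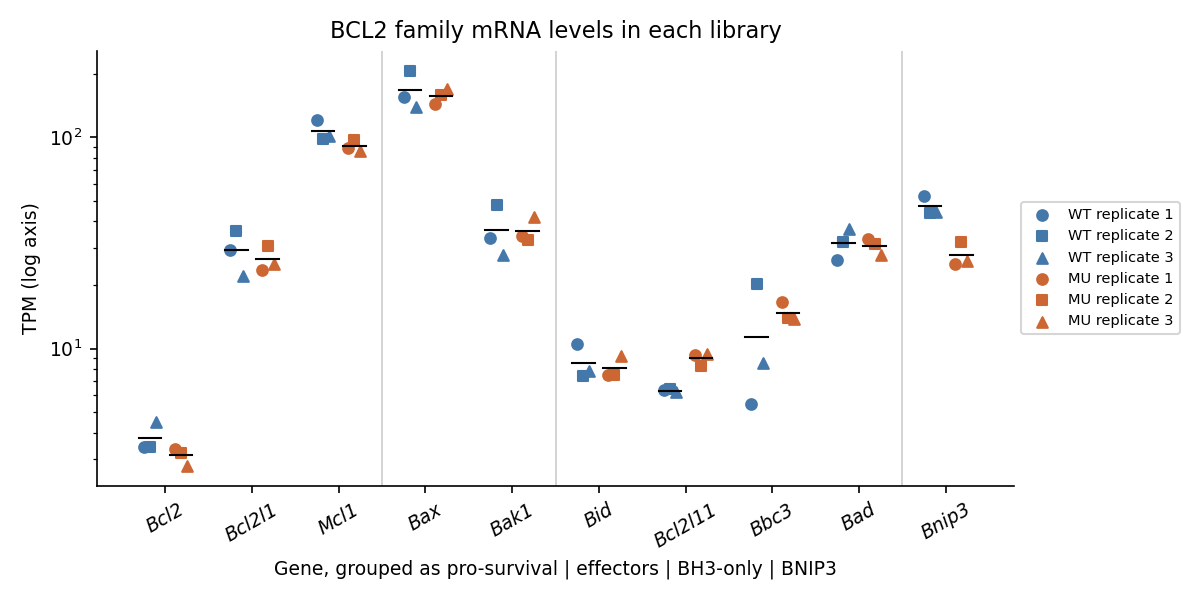
TPM of the 10 members (log axis) in each library, WT in blue and MU in orange, with marker shapes for replicates and black lines for group means. Bnip3 is lower and Bcl2l11 higher in all 3 MU libraries than in any WT library, and Bbc3 spans 5.49 to 20.2 TPM within WT.

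Among the members, mean levels spanned a wide range, in a similar order in both groups. Bax was highest in WT, at 167 ± 35.7 TPM (mean ± SD, n = 3), and Bcl2 was lowest, at 3.78 ± 0.63 TPM. From high to low the WT order was Bax, Mcl1, Bnip3, Bak1, Bad, Bcl2l1, Bbc3, Bid, Bcl2l11 and Bcl2. Neighbours in this order overlapped between libraries for Bnip3 and Bak1, Bak1 and Bad, Bad and Bcl2l1, and Bbc3 and Bid. In MU, Bnip3 moved from rank 3 to rank 5, below Bak1 and Bad, and Bcl2l11 stood at rank 8, above Bid. The ranges of Bak1, Bad, Bnip3 and Bcl2l1 overlapped from each to the next in MU, as did those of Bcl2l11 and Bid.

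None of the 3 pro-survival genes passed, and the lowest unadjusted limma p was 0.0691, for Mcl1. Mcl1 encodes a short-lived guardian that binds BAK and BIM, and lies on chromosome 3 (ENSMUSG00000038612.16, 95658788 to 95663176, GRCm38). Its level was 120.4, 98.5 and 101.5 TPM in the WT libraries and 89.5, 97.0 and 86.1 TPM in the MU libraries. Every MU library was below every WT library, but the gap between MU replicate 2 and WT replicate 2 was small. The log2 fold change of −0.23 (SE 0.10, 95% confidence interval −0.48 to 0.02) did not pass (limma adjusted p = 0.185). Mcl1 made up 76.4% ± 4.35 of the summed TPM of the 3 pro-survival genes in WT and 75.5% ± 1.33 in MU (n = 3).

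Bcl2, the founding member of the family (ENSMUSG00000057329.7, chromosome 1, 106538178 to 106714274), was at 3.43, 3.40 and 4.51 TPM in WT and at 3.36, 3.21 and 2.79 TPM in MU. The groups did not overlap, yet MU replicate 1 lay just below WT replicates 2 and 1. The log2 fold change was −0.21 (SE 0.16, interval −0.59 to 0.17, limma adjusted p = 0.412), and it was −0.10 without WT replicate 3. Bcl2l1, which encodes BCL-XL, was at 29.3, 36.1 and 22.2 TPM in WT and at 23.6, 30.5 and 25.3 TPM in MU (ENSMUSG00000007659.18, chromosome 2, 152780668 to 152831728). All MU values lay inside the WT range. Its log2 fold change of −0.12 (SE 0.19, interval −0.57 to 0.33) did not pass (limma adjusted p = 0.712) and was 0.04 without WT replicate 2. The long and short splice forms of Bcl2l1 and Mcl1, which act in opposite ways, are not separated in these values.

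Neither effector gene passed. Bax (ENSMUSG00000003873.11, chromosome 7, 45461697 to 45466898) encodes a cytosolic protein that inserts into the mitochondrial membrane. It was at 155 TPM in WT replicate 1, 208 in WT replicate 2 and 139 in WT replicate 3, and at 145, 159 and 170 TPM in the MU libraries. The MU libraries lay within the WT range. The log2 fold change was −0.07 (SE 0.16, interval −0.44 to 0.31, limma adjusted p = 0.808), with 0.10 without WT replicate 2 and 0.08 under quantile normalization. Bak1 (ENSMUSG00000057789.14, chromosome 17, 27019810 to 27029009) encodes the effector that resides in the membrane. It was at 33.5, 48.0 and 27.8 TPM in WT and at 34.0, 32.7 and 41.8 TPM in MU, again with MU inside the WT range. Its log2 fold change was 0.02 (SE 0.21, interval −0.48 to 0.51, limma adjusted p = 0.968), and it changed sign with the position-centred fit (−0.08) and without WT replicate 1 (−0.03), WT replicate 3 (−0.15) or MU replicate 3 (−0.09).

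The balance of effector and pro-survival mRNA was computed within each library as a description. Summed Bax and Bak1 over summed Bcl2, Bcl2l1 and Mcl1 was 1.23, 1.85 and 1.30 in WT and 1.53, 1.46 and 1.85 in MU. Bax over Bcl2 was 45.2, 61.0 and 30.9 in WT and 43.1, 49.3 and 61.0 in MU. The groups overlapped in both ratios.

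**Figure D2:**
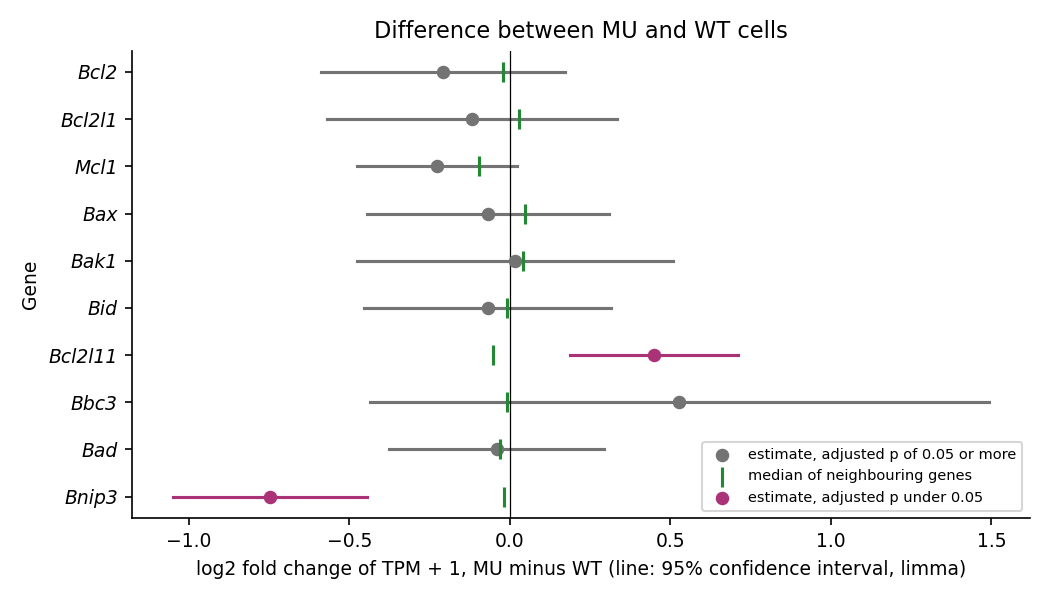
Log2 fold change of TPM + 1 (MU minus WT) for each member, with its 95% limma confidence interval and, as a green tick, the median fold change of 40 neighbouring protein-coding genes. The intervals of Bcl2l11 (0.19 to 0.71) and Bnip3 (−1.05 to −0.45) lie apart from 0 and from their neighbours' medians, and those of the other 8 members span 0.

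BIM, the product of Bcl2l11, binds all pro-survival proteins and can activate BAX directly, and its gene is a known target of FOXO transcription factors. The gene lies on chromosome 2 (ENSMUSG00000027381.16, 128126038 to 128162547). Its level was 6.37, 6.43 and 6.21 TPM in WT and 9.32, 8.29 and 9.48 TPM in MU, so that every MU library was higher than any WT library. The rise from 6.33 ± 0.115 to 9.03 ± 0.648 TPM (n = 3) amounted to 0.45 on the log2 scale (SE 0.11, limma adjusted p = 0.034). In the authors' deposited table the gene has a log2 value of 0.54 and an adjusted p of 0.00261. The authors' values here and below come from another test and are not differences of log2(TPM + 1). They can be set beside the limma values only roughly. The call was lost without any 1 library other than WT replicate 2: the limma adjusted p was 0.0895 without WT replicate 1, 0.0683 without WT replicate 3, and 0.13, 0.0829 and 0.126 without MU replicates 1, 2 and 3. The fold change itself stayed at 0.42 to 0.50 in these fits, and the adjusted p was 0.07 with no filter on low genes. The neighbouring genes had a median of −0.05.

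The promoter of Bcl2l11 is shown because the gene rose and its control by FOXO factors is well known. The 250 bases before the first RefSeq start site (GRCm38.p6, plus strand, chr2:128125788-128126037) hold 1 match to the forkhead motif TGTTTAC, read on either strand and set in capitals:
Bcl2l11 promoter: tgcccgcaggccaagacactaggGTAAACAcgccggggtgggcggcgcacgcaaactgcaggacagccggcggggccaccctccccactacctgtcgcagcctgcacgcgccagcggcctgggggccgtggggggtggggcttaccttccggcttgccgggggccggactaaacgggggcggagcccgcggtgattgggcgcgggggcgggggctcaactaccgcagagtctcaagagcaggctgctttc
The match runs from 227 to 221 bases before the start site. Of 32544 RefSeq promoter windows of 300 bases (250 before to 50 after the start site), 3.66% hold this motif. Among the 16 windows of the members, 2 do, 1 of Bcl2l11 and 1 of Bbc3. A match describes the letters and is no evidence of binding. Foxo3, which encodes a FOXO factor, was at 8.02 ± 0.785 TPM (WT) and 8.30 ± 0.736 TPM (MU) (log2 fold change 0.04, limma adjusted p = 0.841). This mRNA level does not show the activity of FOXO proteins, and a part of them in the rise was not tested.

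Of the other BH3-only genes, Bbc3 had the largest estimate and the widest spread. It encodes PUMA, a p53-induced killer, and lies on chromosome 7 (ENSMUSG00000002083.13, 16308393 to 16318205). Its level was 5.49, 20.2 and 8.51 TPM in WT and 16.6, 14.0 and 13.8 TPM in MU. WT replicate 2 was above all MU libraries, and the other WT libraries were below them. The log2 fold change of 0.53 (SE 0.40, interval −0.44 to 1.49) did not pass (limma adjusted p = 0.414). Without WT replicate 2 it was 1.0 and passed (limma adjusted p = 0.0187), and without WT replicate 1 it was 0.15 (adjusted p = 0.816). Trp53, which encodes p53, was at 146 ± 17.1 TPM (WT) and 128 ± 7.63 TPM (MU) (limma adjusted p = 0.269), and another BH3-only target of p53, Pmaip1, stayed at or below 0.223 TPM and was not tested.

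Bid and Bad did not pass. Bid, whose protein is cut by caspase-8 and links death receptors to mitochondria, was at 10.5, 7.40 and 7.86 TPM in WT and at 7.51, 7.53 and 9.22 TPM in MU (ENSMUSG00000004446.12, chromosome 6, 120891930 to 120916853). Its log2 fold change was −0.07 (SE 0.16, interval −0.45 to 0.32, limma adjusted p = 0.808), with 0.07 without WT replicate 1. Bad, whose protein is kept inactive by survival-kinase phosphorylation, was at 26.4, 32.1 and 36.8 TPM in WT and at 33.1, 31.1 and 27.7 TPM in MU (ENSMUSG00000024959.14, chromosome 19, 6941861 to 6951899). Its log2 fold change was −0.04 (SE 0.14, interval −0.38 to 0.29, limma adjusted p = 0.871), and it was above 0 under each other scaling (0.02 to 0.04) and without WT replicate 3 (0.07) or MU replicate 3 (0.03). The values of both genes overlapped between groups throughout. Bid overlaps Bcl2l13 and Bad overlaps Gpr137 on the other strand. Bak1 likewise overlaps Ggnbp1. Whether the counting used strand is unknown, so reads of these genes and their partners may not be told apart. Bax overlaps a protein-coding gene, Gm45808, on its own strand, where strand cannot separate reads, and Gm45808 was at 0 TPM in all libraries. Bcl2 overlaps a microRNA gene, Mir3473f, on its own strand, which was listed at 0 to 2.55 TPM. How reads shared by 2 genes were counted is unknown.

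Bnip3 gave the clearest difference among the members. Its product is anchored in the mitochondrial outer membrane, recruits the autophagy machinery to mitochondria, and carries an atypical BH3 stretch. The gene lies on chromosome 7 (ENSMUSG00000078566.8, 138890836 to 138909519). Its level was 53.1, 44.1 and 44.4 TPM in WT and 25.3, 31.9 and 26.1 TPM in MU, and the highest MU library was well below the lowest WT library. The fall from 47.2 ± 5.12 to 27.7 ± 3.60 TPM (n = 3) amounted to −0.75 on the log2 scale (SE 0.13, limma adjusted p = 0.0104). The call held without any 1 library (adjusted p = 0.0138 to 0.0495). The authors' deposited table gives −0.68 and an adjusted p of 4.21e-05. The neighbouring genes on chromosome 7 had a median of −0.02. A processed pseudogene and an antisense gene lie inside the Bnip3 locus, and both were at or below 0.706 TPM.

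Bnip3 is a textbook target of hypoxia-inducible factor, for which only 1 form of the binding-site core, ACGTG, was searched here. The 250 bases before its RefSeq start site (GRCm38.p6, minus strand, chr7:138909507-138909756) are shown to place that core, in capitals, in the promoter of the member that fell:
Bnip3 promoter: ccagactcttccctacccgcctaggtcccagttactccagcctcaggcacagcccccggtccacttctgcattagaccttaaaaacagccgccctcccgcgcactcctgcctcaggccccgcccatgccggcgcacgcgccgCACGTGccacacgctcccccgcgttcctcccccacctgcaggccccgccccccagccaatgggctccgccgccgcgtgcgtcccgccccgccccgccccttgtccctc
The capitals mark CACGTG, from 108 to 103 bases before the start site, which holds ACGTG once on each strand in overlapping letters. Other forms of the core were neither searched nor marked, and a match is no evidence of binding. The letters ACGTG occur in 19.7% of the 32544 windows, and in 3 of the 16 windows of the members, those of Bax, Bbc3 and Bnip3. Hif1a, which encodes the oxygen-regulated subunit of the factor, was at 110 ± 23.2 TPM (WT) and 103 ± 7.71 TPM (MU), with WT replicate 2 at 83.3 TPM and both other WT libraries above 123 TPM. Its log2 fold change was −0.08 (limma adjusted p = 0.791). The Hif1a mRNA level does not show the activity of the factor, and a part of it in the fall of Bnip3 was not tested.

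The protein-coding genes most like Bnip3 over the 6 libraries were Elf2, Ywhah and Ipo9, with Pearson correlations of 0.996, 0.995 and 0.994 among 9456 genes compared. Such values reflect mainly the step between the groups, and 287 genes had a correlation over 0.95. Elf2 went from 37.4 ± 2.21 to 28.3 ± 1.26 TPM and Ywhah from 216 ± 11.5 to 159 ± 10.6 TPM, both lower in MU (limma adjusted p = 0.0261 and 0.0186). Ipo9 was at 75.3 ± 2.47 and 63.1 ± 1.77 TPM (adjusted p = 0.0597).

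Bnip3l, the close relative of Bnip3 that encodes the mitophagy receptor NIX, moved in the other direction. It was at 38.5, 31.6 and 34.3 TPM in WT and at 54.6, 65.4 and 56.7 TPM in MU, with no overlap. Its log2 fold change was 0.74 (SE 0.11, limma adjusted p = 0.00717), and it passed under every alternative that was run. The ratio of Bnip3l to Bnip3 was 0.726, 0.717 and 0.773 in WT and 2.16, 2.05 and 2.18 in MU, so it was higher in every MU library. As the gene lengths used are not stated, which of the 2 mRNAs was more abundant in either group is known only roughly. The summed TPM of both was 91.6, 75.7 and 78.7 in WT and 79.9, 97.3 and 82.8 in MU, which overlapped. The pair was set side by side after its values were seen.

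**Figure D3:**
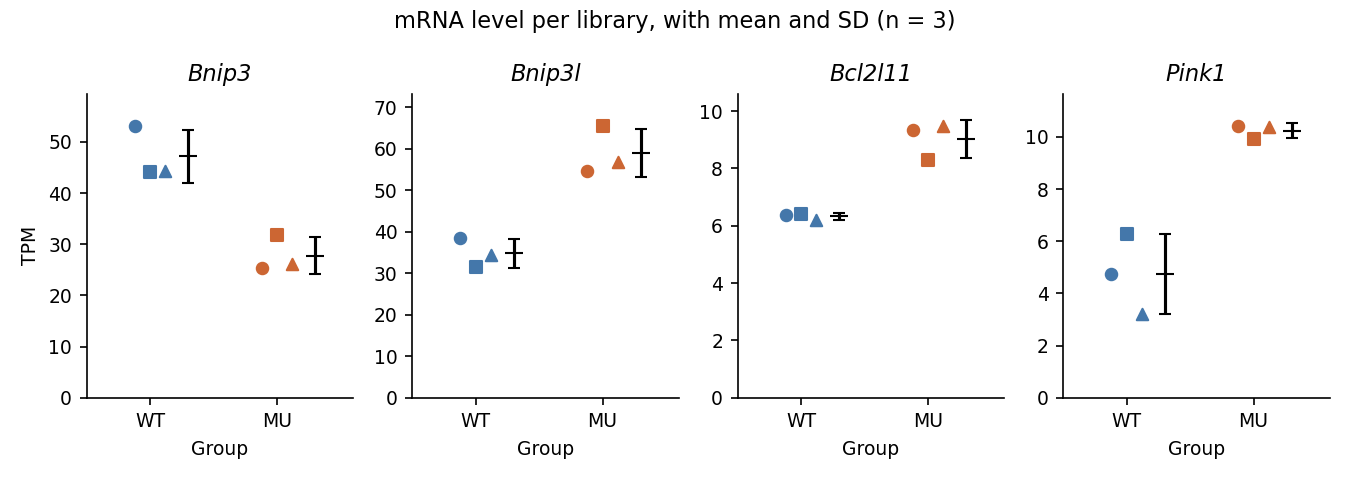
TPM per library, from 0, for Bnip3, Bnip3l, Bcl2l11 and Pink1 in WT (blue) and MU (orange), with the mean and SD of 3 libraries in black. In each panel the groups are apart, with Bnip3 lower and Bnip3l, Bcl2l11 and Pink1 higher in MU.

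Within the groups, Bbc3, Bak1, Bcl2l1 and Bax had the largest spread, and they had it among the WT libraries. The SD of log2(TPM + 1) in WT was 0.87 for Bbc3 (GC content 65.2%) and 0.39 for Bak1 (57.1%). It was 0.34 for Bcl2l1 (55.9%), 0.30 for Bax (63.5%), 0.24 for Bid (51.3%) and 0.23 for Bad (57.1%). The other members stood at 0.18 (Bcl2, 46.3%), 0.15 (Mcl1, 48.7%), 0.15 (Bnip3, 41.6%) and 0.02 (Bcl2l11, 48.0%). Bax, Bak1, Bbc3, Bcl2l1 and Bcl2l11 were highest in WT replicate 2 among the WT libraries. Across the 10 members, the deviation in WT replicate 2 had a Pearson correlation of 0.81 with GC content (Spearman 0.73), with all points from 1 library. The same correlation was −0.69 (Spearman −0.55) in WT replicate 1 and −0.44 (−0.42) in WT replicate 3, and the 3 deviations of a gene sum to 0 within its group. Bad did not follow this pattern, with its highest WT level in replicate 3. In MU the largest SD was 0.19, for Bak1. With a correction for GC content and length, Bcl2l11 stood at 0.55 on the log2 scale (limma adjusted p = 0.0133), Bnip3 at −0.70 (0.0097) and Bbc3 at 0.60 (0.263), and 1 member rose and 1 fell as before.

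**Figure D4:**
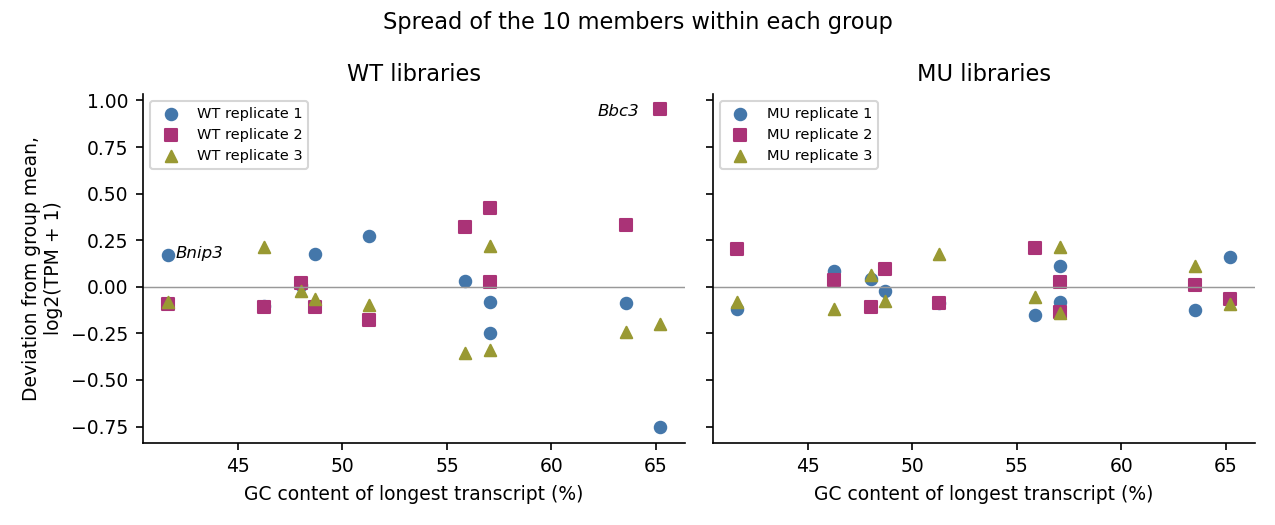
Deviation of each member from its group mean, in log2(TPM + 1), against the GC content (%) of its longest transcript, for the WT libraries (left) and MU libraries (right), with a marker for each replicate. WT replicate 2 is high for Bcl2l1, Bak1, Bax and Bbc3, up to 0.95 for Bbc3, but at 0.03 for Bad, which is also GC-rich, and MU deviations stay within 0.21 of 0.

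Of 16 further genes of the family, 7 were tested, of which Bnip3l rose and 6 did not pass. Median log2 fold change over these 7 was −0.02, against −0.05 over all genes tested. Beside the counts of this list and of the lists below, 18.8% of all genes tested passed, 7.12% higher and 11.6% lower. Bok, an effector-like gene, was at 40.7 ± 4.23 TPM (WT) and 40.0 ± 2.98 TPM (MU) (limma adjusted p = 0.906). Bcl2l2, which encodes the pro-survival BCL-W, was at 15.2 ± 2.02 and 13.7 ± 1.20 TPM (adjusted p = 0.52). The 9 not tested included the 4 Bcl2a1 genes, which were listed at 0 in all libraries, and Hrk and Bik. Pmaip1, also untested, was above 0 in each library.

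Downstream of the mitochondrion, 17 genes of the apoptosome, caspases and their inhibitors were followed, of which 1 fell and 16 did not pass, with a median of −0.14. The gene that fell was Birc5, which encodes survivin, an inhibitor of apoptosis that also serves in mitosis, at 214 ± 19.9 TPM (WT) and 168 ± 3.44 TPM (MU), a log2 value of −0.34 (limma adjusted p = 0.0465). Birc5 did not pass under the other scalings (adjusted p = 0.0549 to 0.164, with a log2 value of −0.21 under quantile normalization), with position centring (−0.16, adjusted p = 0.303, neighbours' median −0.24), with no filter (0.0835), with no intensity trend (0.0779), or without any 1 library other than WT replicate 2 (0.0778 to 0.163). Cycs, the gene of cytochrome c, was at 52.6 ± 6.94 TPM (WT) and 37.1 ± 8.74 TPM (MU) (adjusted p = 0.119). Apaf1, which encodes the scaffold of the apoptosome, was at 12.8 ± 1.75 and 16.1 ± 1.27 TPM (adjusted p = 0.142). It passed as higher with the GC and length correction (0.40, adjusted p = 0.0297), and the authors' deposited table gives it 0.37 and an adjusted p of 0.0364. Without WT replicate 2, Aifm1 also passed as lower (−0.41, limma adjusted p = 0.0279), which made 2 genes lower, and without WT replicate 3 Diablo was the 1 gene that passed (−0.48, adjusted p = 0.0225).

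Of 10 genes of the death receptor arm, 1 rose and 9 did not pass, with a median of −0.09. The gene that rose was Tnfrsf10b, which encodes the mouse TRAIL receptor, at 16.8 ± 2.19 TPM (WT) and 24.4 ± 0.476 TPM (MU), or 0.52 on the log2 scale (limma adjusted p = 0.0241). It did not pass with position centring (0.23, adjusted p = 0.234, neighbours' median 0.23), or without WT replicate 1 or any 1 MU library (0.0755 to 0.0955). Fas was at 2.98 ± 0.783 TPM (WT) and 5.04 ± 0.417 TPM (MU) (adjusted p = 0.0639). Tnfrsf12a, the TWEAK receptor gene, was at 257 ± 78.7 and 148 ± 14.8 TPM (adjusted p = 0.0582), and the authors' deposited table gives it −0.70 and an adjusted p of 0.00353. Tnfrsf12a passed as lower with a minimum of 5 TPM (limma adjusted p = 0.0469), with the GC and length correction (0.0356), with position centring (−1.05, 0.0243) and without WT replicate 1 (0.029). The number of genes lower in this list was thus 2 with the minimum of 5 TPM and the GC and length correction, both with Tnfrsf1a, and 2 with position centring, with Cflar. It was 1 without WT replicate 1 or WT replicate 3 (Tnfrsf1a). Fas passed as higher without WT replicate 2 (limma adjusted p = 0.0396) and after rescaling without mtDNA genes (0.0497).

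Of 22 genes whose products act on or with BCL2 proteins, 2 rose, 1 fell and 19 did not pass, with a median of −0.11. Ddit3, which encodes the stress transcription factor CHOP, rose by 0.73 on the log2 scale, with 51.6 ± 11.3 TPM (WT) and 85.0 ± 5.39 TPM (MU) and a limma adjusted p of 0.0224. Trib3, a pseudokinase gene induced by CHOP, rose from 19.0 ± 2.41 to 29.5 ± 3.04 TPM (0.61, adjusted p = 0.0192). Ddit3 did not pass with position centring (0.48, adjusted p = 0.09) or with no filter on low genes (adjusted p = 0.0569). Neither passed without WT replicate 1 or any 1 MU library (adjusted p = 0.0666 to 0.0853 for Ddit3 and 0.0603 to 0.075 for Trib3). Huwe1, which encodes a ubiquitin ligase of MCL1, fell from 142 ± 17.8 to 92.0 ± 4.02 TPM (−0.61, adjusted p = 0.0115). It lies on the X chromosome among genes with a median of −0.58, and its position-centred value was −0.08 (adjusted p = 0.648). It also did not pass without MU replicate 1 (0.0565) or MU replicate 3 (0.0554). Without WT replicate 2, 4 genes of this list were lower, with Vdac2 (−0.56, limma adjusted p = 0.00636), Vdac3 (−0.49, 0.0145) and Usp9x (−0.43, 0.0212) besides Huwe1, and Vdac3 also passed with the GC and length correction (−0.33, 0.0253).

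Of 6 mitophagy genes besides Bnip3, all tested, 2 rose and 4 did not pass, with a median of −0.10. Over all genes tested, 18.8% passed, 7.12% higher and 11.6% lower, and the median was −0.05. Bnip3l and Bcl2l13 are also among the further genes of the family, so the rise of Bnip3l counts in both lists. Pink1, which encodes the kinase that marks damaged mitochondria, joined Bnip3l. It was at 4.74, 6.29 and 3.22 TPM in WT and at 10.4, 9.92 and 10.4 TPM in MU. The difference was 1.0 on the log2 scale (SE 0.20, limma adjusted p = 0.0193). It did not pass without WT replicate 1 or any 1 MU library (adjusted p = 0.0627 to 0.0723), nor with no filter (0.0547), and its value was 0.66 with a pseudocount of 5.

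**Figure D5:**
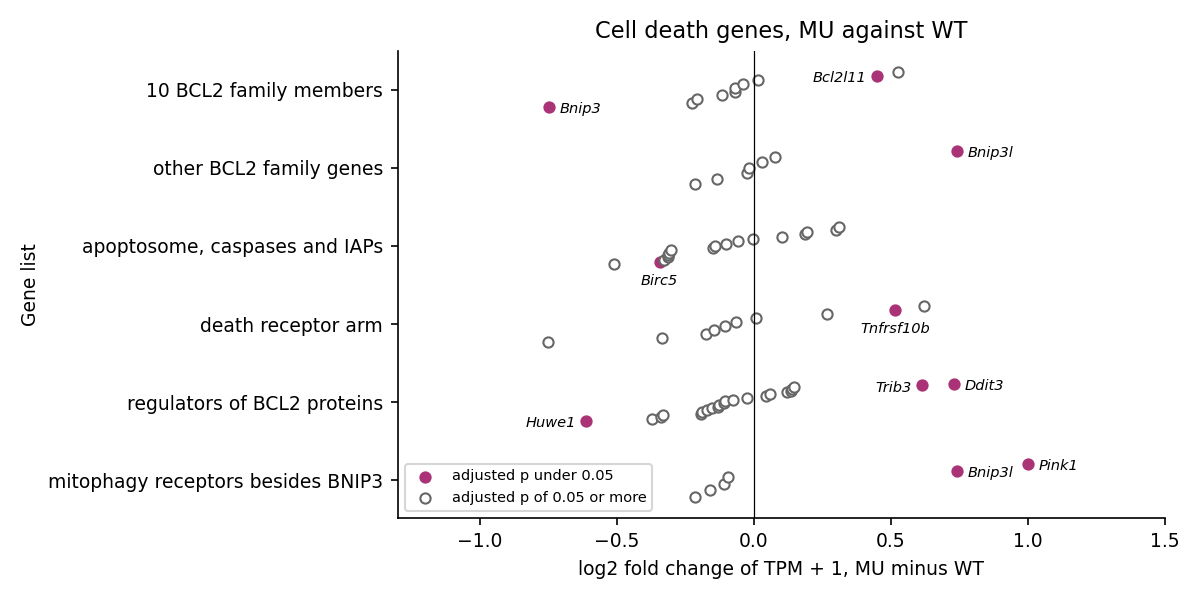
Log2 fold change of TPM + 1 (MU minus WT) for the tested genes reported here, of the 10 members and of 5 related lists, 1 circle per gene, filled and named where the limma adjusted p was under 0.05. Most circles lie near 0, and among the named genes Bnip3 (−0.75) is farthest to the left and Pink1 (1.0) farthest to the right.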

How the data were processed

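RNA of NIH-3T3 cells (WT, 3 libraries) and of a mutated derivative (MU, 3 libraries) was made into mRNA libraries with a strand-marking kit, per the labels' protocols. Per the submitters' processing notes, DESeq2 1.20.0, featureCounts 1.5.0-p3, HISAT2 2.05.0 and FastQC 0.11.4 were used with build mm10. Their roles and the strand setting are not given in those notes as used here. Values deposited by the authors are log2(TPM + 1) per gene and library, with at most 4 digits. The authors also deposited a comparison table with mean TPM per group, log2 fold changes, p-values and adjusted p-values. TPM keeps no depth, so depth is unknown and no counting interval was given.

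Genes reaching 1 TPM in 3 or more of the 6 libraries were tested on the log2(TPM + 1) scale with limma 3.58.1 in R 4.3.3 (moderated, intensity trend, two-sided, no covariate), which left 14209 genes. Benjamini-Hochberg adjustment ran over all of them, and calls are at an adjusted p under 0.05. The confidence intervals are unadjusted. As no label says that replicates are separate cultures, p-values cover only the spread between these samples, and that may be technical. Positions come from GENCODE release M21 (GRCm38, the assembly of mm10), and GC content is that of a gene's longest transcript there. Promoter windows come from RefSeq. The test was tried on simulated data.

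The members, gene lists, tests and naming rule were chosen with earlier results of these data known. All 10 members are named, and in each of 5 cell death lists the 2 higher and the 2 lower passing genes with the smallest adjusted p. For the member with the smallest adjusted p, the 3 protein-coding genes most correlated with it are named. Other genes were chosen after their values were seen. Some genes of these lists are not reported here and are left out of the list counts. The alternatives used other pseudocounts (0.1 and 5), no filter or a minimum of 5 TPM, a replicate block, 3 other scalings, robust estimation or no trend in limma, 1 library left out at a time, a loess correction (span 0.3) for GC content and length, and a position-centred fit. The last subtracts the median change of up to 20 neighbouring genes on each side. Without counts in these tables, no count test was run.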

Additional observations from a re-analysis of the deposited data

How the results depend on the processing

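Of the 10 members, 1 passed as higher in MU and 1 as lower in the comparison as reported. The number passing as higher was 0 with no filter on low genes, where the limma adjusted p of Bcl2l11 was 0.07. At an unadjusted p under 0.05, 1 member was higher in that fit. It ranged from 0 to 2 when 1 library was left out, and the number passing as lower was 1 in each of those fits. With the replicate number as a block, 0 passed in either direction (limma adjusted p = 0.122 for Bcl2l11 and 0.0502 for Bnip3), and at an unadjusted p under 0.05 there were 1 higher (Bcl2l11) and 1 lower (Bnip3). Same-numbered MU and WT libraries did not deviate together (correlations of −0.07 to 0.05), so the numbers were not taken as pairs. The block also ended the calls of Birc5, Tnfrsf10b, Trib3, Ddit3, Huwe1 and Pink1, and Bnip3l still passed.

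Bcl2l11 passed under 11 of 18 alternatives and Bnip3 under 17 of 18. Signs changed only among members that did not pass. With 1 library left out, values ran from −0.295 to 0.0438 for Bcl2l1, −0.188 to 0.098 for Bax, −0.155 to 0.227 for Bak1, −0.156 to 0.0693 for Bid and −0.164 to 0.0685 for Bad. Bak1 was also negative without WT replicate 1 (−0.0253) or MU replicate 3 (−0.0905), and Bad positive without MU replicate 3 (0.0285). Quantile normalization gave 0.0802 for Bax and 0.0367 for Bad, and Bad was at 0.0223 with median-of-ratios scaling and 0.0221 after rescaling without mtDNA genes. Position centring gave −0.0805 for Bak1, and the GC and length correction gave 0.00493 for Bid. The cause was not tested. Depth is unknown, so what it limits cannot be given. The median of all tested genes was −0.05 as deposited and within 0.01 of 0 with the other scalings.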
